A study of Mus musculus with 33 samples.

Results

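The 40 genes described here are known mouse imprinted genes, taken by name from the 35349 gene rows of a raw count table. All 40 are in the table. They were measured by RNA sequencing of whole embryonic mouse kidney. By textbook knowledge 20 of them are expressed mainly from the paternal copy (for example Igf2, Peg3, Peg10, Nnat and Snrpn), 13 mainly from the maternal copy (for example H19, Meg3, Grb10, Cdkn1c and Igf2r), and 7 show imprinting that is limited to some tissues or isoforms (Gnas, Ube3a, Blcap, Copg2, Commd1, Inpp5f and Ppp1r9a). The parental copy was not measured: the counts give the total level of each gene, so gain or loss of imprinting cannot be read from them.

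Genomic imprinting is the expression of a gene from only the maternal or only the paternal chromosome, set by DNA methylation laid down in the egg or sperm and kept in the embryo. Many imprinted genes govern growth of the fetus and placenta: paternally expressed genes such as Igf2 tend to promote growth, and maternally expressed genes such as Igf2r, Grb10 and Cdkn1c tend to restrain it. Imprinted genes lie in clusters that share a control region, and many of them are highly expressed in embryonic tissue and decline after birth.

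The kidneys came from embryos that were wild type, heterozygous or knockout for Six2, a homeobox factor that holds nephron progenitor cells in an undifferentiated state. At embryonic day 11.5 (E11.5) there were 6 wild-type, 5 heterozygous and 5 knockout specimens, and at E15.5 there were 4 wild-type and 4 heterozygous specimens and no knockout group. The labels give no strain, no allele design and no treatment, and all groups share whole kidney as the tissue. A specimen is 1 labelled sample after its repeat sequencing runs were summed: every E15.5 specimen and 1 E11.5 heterozygous specimen was run in both labelled batches, and the other E11.5 specimens in 1 batch each. The labels do not state that each specimen is a separate animal, so p-values measure the spread between these specimens.

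Six2 itself checked the labels: its level ran from 19.5 to 33.1 CPM (counts scaled to a library total of 1e+06, median 23.5) in E11.5 wild type, from 9.9 to 17 (median 13.9) in E11.5 heterozygous and from 0.291 to 0.666 (median 0.465) in knockout specimens. At E15.5 it ran from 11 to 12.8 in wild type and from 5.69 to 6.51 in heterozygous specimens. The 33 libraries held 10.82 to 42.07 counts each in units of 1e+06. The share of ribosomal RNA genes in E11.5 batch 1 libraries was 20.5% to 26.6% for wild type, 3.57% to 18.7% for heterozygous and 0.878% to 12.5% for knockout embryos, and it was at most 0.469% in batch 2. Batch was a term in the main E11.5 fits. It takes out the mean difference between batches, not the difference in ribosomal share between genotypes within batch 1. There the wild-type share did not overlap that of the other genotypes, so genotype and share cannot be told apart within batch 1.

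The members sit on 9 chromosomes of the mm10 (GRCm38) build, 16 of them on chromosome 7 and 7 on chromosome 6. A few sequences show how closely some of the neighbours are packed. Peg3, on the minus strand at chr7:6703892-6730431, and Usp29, on the plus strand at chr7:6730578-6967219, start head to head, and both fell between the ages. The 163 bases between their RefSeq starts (chr7:6730420-6730582, plus strand, GRCm38.p6) are printed with CG dinucleotides, where mammalian DNA is methylated, in capitals.
Peg3-Usp29: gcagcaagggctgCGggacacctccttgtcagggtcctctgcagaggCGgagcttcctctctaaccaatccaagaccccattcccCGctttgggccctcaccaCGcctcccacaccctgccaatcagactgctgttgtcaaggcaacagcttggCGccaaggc
Nnat lies inside Blcap, its host gene on the opposite strand (chr2:157556362-157571274), and its level followed that of Blcap across the E11.5 specimens. The 250 bases before its start (chr2:157559828-157560077, plus strand) hold 12 CG dinucleotides.
Nnat: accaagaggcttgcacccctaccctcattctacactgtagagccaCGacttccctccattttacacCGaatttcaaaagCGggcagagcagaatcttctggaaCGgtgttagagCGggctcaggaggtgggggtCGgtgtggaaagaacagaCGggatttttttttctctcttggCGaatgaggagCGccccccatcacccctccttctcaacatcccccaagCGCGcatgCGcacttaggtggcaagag
Phlda2 differed most of the members that were higher at E15.5. The 250 bases before its RefSeq start (chr7:143502525-143502774, minus strand) hold 21 CG dinucleotides, more than 83.7% of all such windows.
Phlda2: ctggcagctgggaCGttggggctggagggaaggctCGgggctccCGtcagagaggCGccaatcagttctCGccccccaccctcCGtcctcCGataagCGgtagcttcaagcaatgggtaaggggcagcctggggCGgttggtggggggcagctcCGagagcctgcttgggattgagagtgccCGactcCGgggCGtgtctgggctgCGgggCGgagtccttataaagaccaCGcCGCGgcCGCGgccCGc
RefSeq windows were matched for 34 of the 40 members. Their 52 windows had a median of 10 CG dinucleotides, against 6 over all 32851 windows, and 94.2% of them held at least 1 such dinucleotide, against 92.1% of all windows. DNA methylation was not measured.

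Several members are also host transcripts of microRNAs, short RNAs that pair with messengers through the seed at bases 2 to 8. Mirg alone spans 14 hairpins with 26 mature forms and 25 distinct seeds. The single shared seed is shown in capitals for the pair of Mirg microRNAs that carry it (chr12:109735669-109735692 and chr12:109739132-109739152), beside the seed of the microRNA inside H19, the member with the highest level (chr7:142577112-142577133, minus strand).
mmu-miR-453: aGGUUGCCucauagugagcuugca
mmu-miR-496a-5p: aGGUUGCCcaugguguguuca
mmu-miR-675-5p: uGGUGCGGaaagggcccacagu
The libraries counted longer transcripts, so the levels given for Mirg and H19 are those of the host RNAs and say nothing of the mature microRNAs.

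The members spanned a wide range of levels in the early kidney. Compared per length of gene, as mean CPM per kilobase, H19, a noncoding RNA transcribed beside Igf2, was the highest at 1903 in E11.5 wild type, rank 17 of the 14615 genes with a mean of at least 1 CPM. Cdkn1c, the cell cycle inhibitor p57, stood at 443 (rank 68). Mest, a hydrolase-fold protein of mesoderm, stood at 236 (rank 136). Grb10, an adaptor that dampens insulin and IGF receptor signals, and Peg3, a zinc finger protein, both stood at 226 (ranks 147 and 145). Igf2, the fetal insulin-like growth factor, stood at 162 (rank 205) and Nnat, a small membrane proteolipid, at 149 (rank 241). At the low end were Phlda2, a PH domain protein that limits placental growth, Ascl2, a helix-loop-helix factor of the placenta, and Slc22a18, a membrane transporter: each had a mean under 1 CPM in E11.5 wild type. Phlda2 and Ascl2 had too few counts to be tested at E11.5, and Ascl2 also between the ages.

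**Figure D1:**
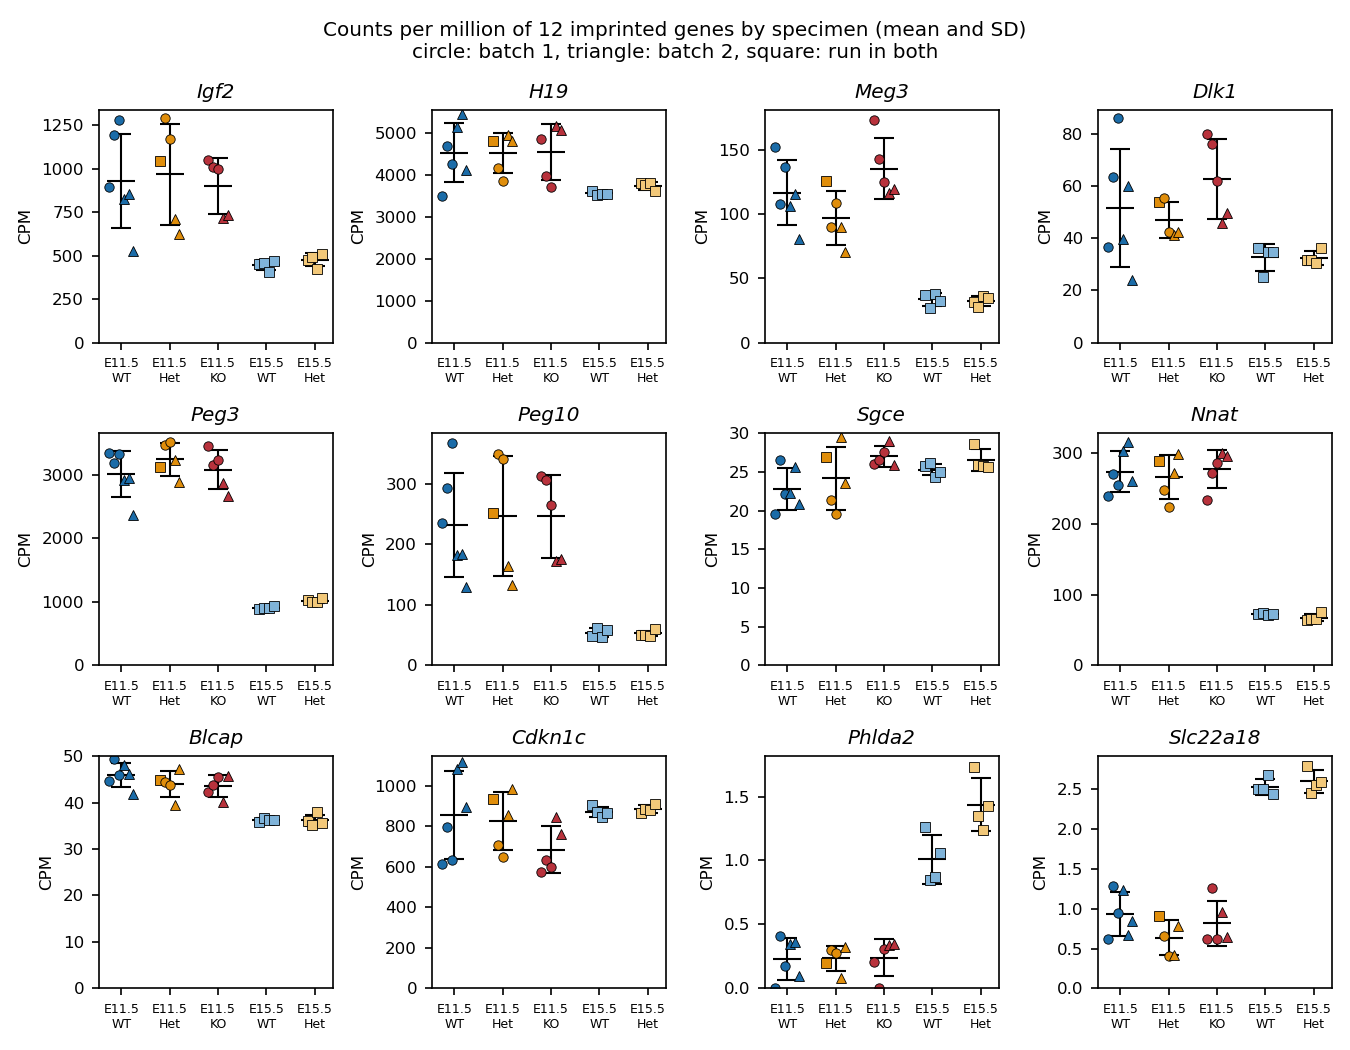
Level of selected imprinted genes in each specimen, in CPM, by genotype and age (E11.5 and E15.5). Lines are the mean and SD of a group, circles are specimens run in batch 1, triangles in batch 2 and squares in both. Igf2, Peg3, Peg10, Nnat and Meg3 were lower in all 4 E15.5 wild-type specimens than in any E11.5 wild-type specimen, whereas the Cdkn1c and Sgce ranges of the 2 ages overlapped.

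The comparison of ages asks how the members changed as the kidney went from its first branches to a stage with forming nephrons. The E15.5 specimens carry another series of titles than the E11.5 ones. E15.5 libraries held at most 1.08% ribosomal RNA genes, against up to 26.6% at E11.5. Age and sample handling thus cannot be told apart. Most of the members fell. In wild type 34 of 39 tested members passed the test at an adjusted p under 0.05, 28 lower and 6 higher at E15.5, while over all 17362 genes tested 66.1% passed, 32.1% lower and 34% higher. A fall of at least 2-fold was called for 14 members, against 8.69% of all genes, and a rise of at least 2-fold for 2, against 10.8%. Phlda2, among those higher, was too low to be tested at E11.5 alone. It and Nap1l5, among those lower, passed the filter on low counts only through the age where each is high. Both are kept in the member counts between the ages as description and are no support for a change. The heterozygous embryos share no specimen with the wild-type comparison, but both comparisons came from the same fit with shared spread, sex and batch terms. In heterozygous embryos 28 members were lower and 6 higher of 39, with 64.2% of all genes called, 31.1% lower and 33.1% higher. Of these members 11 were at least 2-fold lower and 2 at least 2-fold higher, against 7.6% and 11.3% of all genes.

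The median log2 change of the members was -0.46 in wild type and -0.54 in heterozygous embryos, and that of all genes tested -0.00 and -0.01. The same 27 members were lower and the same 6 higher in both genotypes. Snrpn was called in wild type alone and Plagl1 in heterozygous embryos alone, and no difference between the genotypes was called for either gene. The specimen ranges of the 2 ages did not overlap for 22 lower and 4 higher members in wild type (19.9% and 24.2% of all genes) and for 25 lower and 3 higher members in heterozygous embryos (21.2% and 25.4%).

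**Figure D2:**
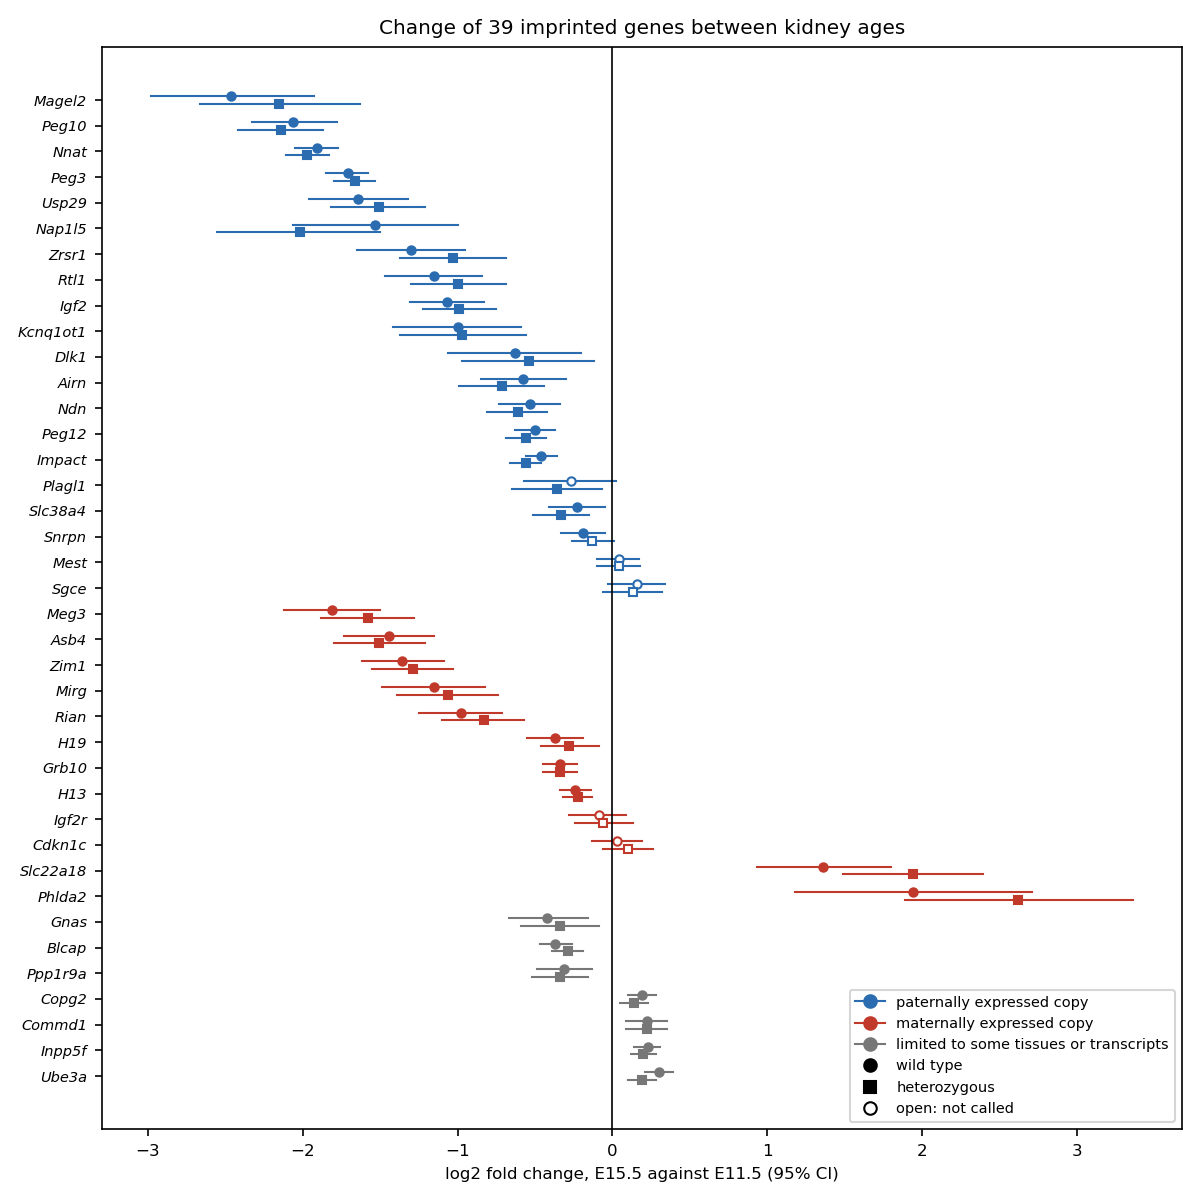
Log2 fold change from E11.5 to E15.5 of each imprinted gene, with 95% confidence intervals, in wild-type and heterozygous kidneys. Most points lie left of 0 in both genotypes, from Magel2 at -2.46 in wild type up to Phlda2 at 1.94 in wild type and 2.62 in heterozygous embryos.

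Of the 20 paternally expressed members, 17 were lower, 0 higher and 3 not called in wild type, 10 of them at least 2-fold lower, with a median log2 change of -0.81. Of the 12 maternally expressed members tested, 8 were lower and 2 higher (median -0.35). Of the 7 members with limited imprinting, 3 were lower and 4 higher (median 0.19). In heterozygous embryos the counts were the same, with medians of -0.84, -0.31 and 0.14, and 8 paternally expressed members at least 2-fold lower. Over all genes 32.1% were lower, 34% higher and 8.69% at least 2-fold lower in wild type. The 4 rises with limited imprinting were those of Commd1, Copg2, Inpp5f and Ube3a. None of these held under all alternatives in either genotype. Among the falls, those of Gnas, Dlk1, Slc38a4 and Snrpn did not hold in wild type. The classes were not tested against each other, and genes of 1 domain are not independent.

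The Peg3 domain on chromosome 7 fell as a whole. Peg3, a paternally expressed zinc finger protein, was measured in E11.5 wild type at 2376 to 3339 CPM (median 3070), and in the 4 E15.5 wild-type specimens at 887, 912, 906 and 934 CPM. The ranges were far apart, and the log2 change was -1.71 (SE 0.07, edgeR adjusted p 5.97e-16). Usp29, a ubiquitin peptidase that starts beside Peg3, went from 2.78 to 3.75 CPM (median 3.55) down to 1.08, 0.968, 1.14 and 1.2 CPM, a log2 change of -1.64 (SE 0.15). Zim1, a maternally expressed zinc finger gene of the same domain, went from 36.6 to 61.1 CPM (median 50.2) down to 19.9, 20.3, 20.6 and 19.5 CPM, a log2 change of -1.36 (SE 0.13). The genes of this domain fell whichever copy each is known to be expressed from. In heterozygous embryos the changes were -1.66, -1.51 and -1.29. Compared per length, Peg3 was 174 ± 14.1 (SD, n = 6) times the level of Usp29 in E11.5 wild type and 163 ± 14.7 (n = 4) at E15.5.

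In the Peg10-Sgce domain on chromosome 6 the neighbours parted. Peg10, a protein derived from a retrotransposon and needed in the placenta, ran from 130 to 367 CPM (median 209) in E11.5 wild type and stood at 49.2, 60.9, 47.1 and 59.1 CPM at E15.5. It fell by 2.06 (SE 0.13, adjusted p 4.34e-12 by edgeR) in wild type and by 2.14 in heterozygous embryos on the log2 scale. Sgce, the paternally expressed epsilon sarcoglycan that starts beside Peg10 on the opposite strand, stood at 19.6 to 26.5 CPM (median 22.2) and then at 25.7, 26.1, 24.4 and 25 CPM. Its log2 change of 0.16 (95% interval -0.03 to 0.34) was not called. Asb4, a maternally expressed ankyrin repeat protein, ran from 78.1 to 133 CPM (median 108) and then stood at 36.9, 46.6, 40 and 37.8 CPM, a log2 change of -1.44 (SE 0.14). Ppp1r9a, the actin-binding protein neurabin, fell by 0.31 (SE 0.09) on the log2 scale, from 105 to 157 CPM (median 111) to 95.8, 97.6, 101 and 102 CPM. Per length, Peg10 stood at 4.74 ± 1.79 (SD, n = 6) times Sgce in E11.5 wild type and at 0.993 ± 0.115 (n = 4) at E15.5.

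The Dlk1-Meg3 domain on chromosome 12 (chr12:109452823-109749460) fell in each of its 5 members, whichever copy each is known to be expressed from. Meg3, a maternally expressed noncoding RNA, was measured at 81 to 153 CPM (median 112) in E11.5 wild type and at 37.3, 27, 37.7 and 32.4 CPM at E15.5, with no overlap and a log2 change of -1.81 (SE 0.15, edgeR adjusted p 3.13e-10). Rian, which hosts small nucleolar RNAs, went from 188 to 325 CPM (median 276) down to 137, 125, 151 and 132 CPM (log2 change -0.98, SE 0.13). Mirg, the microRNA host, went from 34.5 to 50.5 CPM (median 41.5) down to 21.1, 14.2, 21.7 and 17.3 CPM (log2 change -1.15, SE 0.16). These 3 noncoding RNAs are known to be maternally expressed. Of the genes known to be paternally expressed, Rtl1, a retrotransposon-derived placental protein that lies antisense to microRNAs of the domain, went from 17.4 to 27.1 CPM (median 22.6) down to 11, 7.8, 10.4 and 9.27 CPM (log2 change -1.15, SE 0.15). Genes on the opposite strand cover 8.12% of the exonic bases of Rtl1, and the strand setting of the counting is not given. Dlk1, a transmembrane regulator of differentiation, ran from 23.8 to 85.8 CPM (median 49.9) and then stood at 36.3, 25.1, 34.6 and 34.6 CPM. The Dlk1 ranges overlapped, and its log2 change was -0.63 (SE 0.21, edgeR adjusted p 0.0108), a call lost without E15.5 wild-type specimen 2 (adjusted p 0.0852 by edgeR). The Meg3 level was 0.811 ± 0.328 (SD, n = 6) of that of Dlk1 per length in E11.5 wild type and 0.323 ± 0.0217 (n = 4) at E15.5.

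Nnat and the gene that contains it differed in the size of their change. Nnat, paternally expressed and best known from brain and endocrine cells, stood at 239 to 315 CPM (median 265) in E11.5 wild type and at 72.3, 73.7, 71.8 and 72 CPM at E15.5. The 4 E15.5 specimens lay within 2 CPM of each other and the log2 change was -1.91 (SE 0.07, edgeR adjusted p 2.04e-16). Blcap, a small membrane protein gene, stood at 41.9 to 49.3 CPM (median 46) and then at 35.8, 36.7, 36.3 and 36.3 CPM (log2 change -0.37, SE 0.05). In heterozygous embryos the changes were -1.97 and -0.29. Per length Nnat was 9.9 ± 0.979 (SD, n = 6) times Blcap in E11.5 wild type and 3.33 ± 0.0328 (n = 4) at E15.5.

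Of the genes of the Prader-Willi region on chromosome 7, Magel2, Ndn and Peg12 fell in both genotypes, to unequal degrees, and Ube3a was called higher. Magel2, a MAGE protein of ubiquitin ligase complexes, was measured at 5.57 to 9.73 CPM (median 6.1) in E11.5 wild type and at 1.26, 0.844, 0.977 and 1.23 CPM at E15.5, with a log2 change of -2.46 (SE 0.25, edgeR adjusted p 1.41e-08), the largest fall of the members. Ndn, the related MAGE protein necdin, went from 111 to 176 CPM (median 146) down to 106, 105, 88.6 and 104 CPM (log2 change -0.53, SE 0.09). Peg12, a GSK3-binding protein, went from 38.3 to 48.3 CPM (median 46.5) down to 31.1, 31.9, 32.1 and 31.3 CPM (log2 change -0.50, SE 0.06). Ube3a, the ubiquitin ligase of Angelman syndrome that is imprinted in neurons, was higher at E15.5 by 0.30 (SE 0.04) in wild type and by 0.19 in heterozygous embryos on the log2 scale. With batch 1 runs alone the wild-type value was 0.01 (edgeR adjusted p 0.855), and the heterozygous value was -0.18 (edgeR adjusted p 0.000422), a call in the opposite direction. Without the batch term neither was called. Snrpn, a spliceosomal protein, changed by -0.19 (SE 0.07, edgeR adjusted p 0.0156) in wild type, and this value was 0.00 with batch 2 runs alone.

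Igf2 and H19, described for their place in growth control, both fell, Igf2 more than its neighbour. Igf2 ran from 528 to 1282 CPM (median 876) in E11.5 wild type and stood at 450, 458, 404 and 472 CPM at E15.5. The ranges did not overlap and the log2 change was -1.07 (SE 0.12, edgeR adjusted p 2.84e-08) in wild type and -0.99 in heterozygous embryos. H19 ran from 3501 to 5434 CPM (median 4468) and then stood at 3620, 3525, 3531 and 3540 CPM. Its ranges overlapped in wild type and its log2 change was -0.37 (SE 0.09, edgeR adjusted p 0.000787). Igf2r, the receptor that clears IGF2 from the cell surface, was not called: it ran from 572 to 902 CPM (median 727), then stood at 668, 662, 686 and 682 CPM, and its log2 change was -0.09 (95% interval -0.28 to 0.09). Airn, the antisense RNA that silences the paternal Igf2r copy, fell by 0.58 (SE 0.13) on the log2 scale. Per length, Igf2 was 2.18 ± 0.642 (SD, n = 6) times Igf2r in E11.5 wild type and 1.1 ± 0.0807 (n = 4) at E15.5, and H19 went from 12.7 ± 4.3 to 19.3 ± 1.3 times Igf2.

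The Kcnq1ot1 domain, also on chromosome 7, held the members with the largest positive differences. Phlda2 stood at 0 to 0.409 CPM (median 0.261) in E11.5 wild type and at 1.26, 0.844, 0.872 and 1.06 CPM at E15.5, a log2 change of 1.94 (SE 0.37). It passed the filter on low counts only through the E15.5 groups where it is high, so its call is a description and is no support for a change. Slc22a18 went from 0.618 to 1.29 CPM (median 0.9) up to 2.51, 2.51, 2.68 and 2.44 CPM, a log2 change of 1.36 (SE 0.21). Both are maternally expressed and low, and their ranges did not overlap between the ages. In heterozygous embryos the values were 2.62 (SE 0.35) and 1.94 (SE 0.22). Kcnq1ot1, the antisense RNA that silences this domain on the paternal copy, fell by 1.00 (SE 0.20, edgeR adjusted p 0.000137), from 152 to 564 CPM (median 248) to 138, 128, 169 and 148 CPM, ranges that overlapped. Under the alternatives the Kcnq1ot1 call held, but its log2 change in wild type ran from -1.37 to -0.52. Cdkn1c ran from 613 to 1120 CPM (median 846) and then stood at 904, 869, 847 and 867 CPM. Its log2 change of 0.03 (95% interval -0.13 to 0.19) was not called, and it was 0.29 with batch 1 runs alone and -0.24 with batch 2 runs alone. Ascl2 stood at 0.119 to 0.353 CPM (median 0.249) in E11.5 wild type and at 0.306, 0.329, 0.256 and 0.342 CPM at E15.5.

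The remaining members lie in smaller domains or alone. Nap1l5, a nucleosome assembly protein relative inside another gene, was at 0.85 to 1.72 CPM (median 1) in E11.5 wild type and at 0.435, 0.309, 0.361 and 0.327 CPM at E15.5 (log2 change -1.53, SE 0.26). In the fit over both ages it passed the filter on low counts only through the E11.5 groups where it is high. Its call is thus a description and is no support for a change. Zrsr1, a splicing factor retrogene, was at 15.8 to 23 CPM (median 20) and then at 8.39, 8.34, 8.3 and 9.16 CPM (log2 change -1.30, SE 0.17). Commd1, the COMM domain gene whose intron holds Zrsr1, rose by 0.22 (SE 0.06) in both genotypes, but by 0.02 and 0.04 with batch 2 runs alone, where neither was called. Smaller falls, of 0.46 to 0.23 on the log2 scale in wild type, were called for Impact, Gnas, Grb10, H13 and Slc38a4. Small rises of 0.23 and 0.19 were called for Inpp5f, an inositol phosphatase, and Copg2, a coat protein subunit. In wild type the Inpp5f and Copg2 calls were lost with batch 1 runs alone (values 0.07 and 0.08), as was that of Gnas (-0.23), and the Slc38a4 call was lost with batch 2 runs alone (-0.12). Plagl1, a paternally expressed zinc finger regulator of other imprinted genes, changed by -0.27 (edgeR adjusted p 0.0929) in wild type and by -0.36 (edgeR adjusted p 0.0298) in heterozygous embryos, where it was 0.16 with batch 2 runs alone. Mest, the paternally expressed neighbour of Copg2, was not called, at a log2 change of 0.04 (95% interval -0.10 to 0.17).

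Cell types that are not kidney epithelium moved with age as well. The summed level of 9 neuron and sympathetic chain markers was 68.4 to 173 CPM in E11.5 wild type and 20.8 to 25 CPM at E15.5, and all 9 were lower in each genotype. The summed level of 8 erythroid markers went from 2179 to 9268 CPM down to 690 to 742 CPM, and of 9 skeletal muscle and cartilage markers from 397 to 615 CPM down to 75.1 to 78 CPM. Of the erythroid markers 6 of 8 were lower and 1 higher, but of the 6 muscle and cartilage markers tested only 2 were lower and 1 higher, with a median of 0.02. Proximal tubule markers went up from 40.8 to 52.8 CPM to 726 to 813 CPM, with 8 of 8 higher. Only 5 of these 8 could be tested at E11.5 alone, and 7 of the 9 neuron markers at E15.5 alone. Calls of markers too low to be tested at 1 age are description and no support for a change. The part of these shifts in the changes of the members was not tested. In whole tissue, fewer cells of a type and less RNA per cell cannot be told apart.

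The 4 heterozygous E15.5 specimens lay close to the wild-type ones. Nnat was at 289, 247, 223, 272 and 298 CPM in E11.5 heterozygous specimens and at 64.3, 65.2, 65.8 and 74.8 CPM at E15.5. Igf2 was at 1044, 1293, 1175, 711 and 623 CPM and then at 474, 495, 425 and 511 CPM. Phlda2 was at 0.196, 0.297, 0.275, 0.0846 and 0.325 CPM and then at 1.73, 1.35, 1.24 and 1.43 CPM. None of these ranges overlapped between the ages. Over the 39 members the changes in the 2 genotypes differed by a median of 0.08 on the log2 scale.

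The counts of 4 members are uncertain because other GENCODE genes cover more than 25% of their exonic bases, at 64.5% for Igf2, 34.1% for Snrpn, 30.7% for Cdkn1c and 27.3% for Ube3a. In each genotype 26 of the 34 called members kept their direction and call under all 10 alternative settings and in the 24 fits that left out 1 specimen, 24 of them lower and 2 higher, and 25 did so in both genotypes. The 2 higher were Phlda2 and Slc22a18. For Phlda2, and for Nap1l5 among those lower, this is no support for a change, since each passed the filter only through 1 age.

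The knockout comparison asks whether the loss of Six2 at E11.5 moved the imprinted genes. Of 38 members tested, 1 was called, Snrpn, against 7.09% of all genes tested. The log2 changes of the members ran from -0.25 to 0.30 with a median of 0.03, and the median of all genes was -0.00. For 33 of the 38 members the 95% interval lay within 1.5-fold in either direction, and for all 38 within 2-fold. Igf2 changed by -0.06 (interval -0.29 to 0.17), H19 by 0.05 (interval -0.16 to 0.26) and Peg3 by 0.00 (interval -0.15 to 0.16).

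Snrpn, the paternally expressed spliceosomal gene at chr7:59982495-60140219, stood in batch 1 at 42.1, 43.7 and 47.8 CPM in wild-type specimens and at 55.7, 51.7 and 48.3 CPM in knockout specimens. In batch 2 it stood at 22.6, 22.2 and 21.4 CPM in wild type and at 27.6 and 30.7 CPM in knockout. The knockout specimens were thus above the wild-type ones without overlap within each batch, and the groups overlapped when the batches were pooled. The log2 change was 0.30 (SE 0.07, edgeR adjusted p 0.0121) against wild type and 0.36 (SE 0.07, edgeR adjusted p 0.0124) against heterozygous. It was lost without the batch term (adjusted p 0.69 and 0.65), and without knockout specimen 5, where the value was 0.23 (adjusted p 0.101 by edgeR) against wild type. Its sign turned, to -0.27, when the prefix of the sample titles replaced batch as the block. Other GENCODE genes share 34.1% of its exonic bases, among them Snurf, and the strand setting of the counting is not given in the sources used here, so its counts are uncertain.

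**Figure D3:**
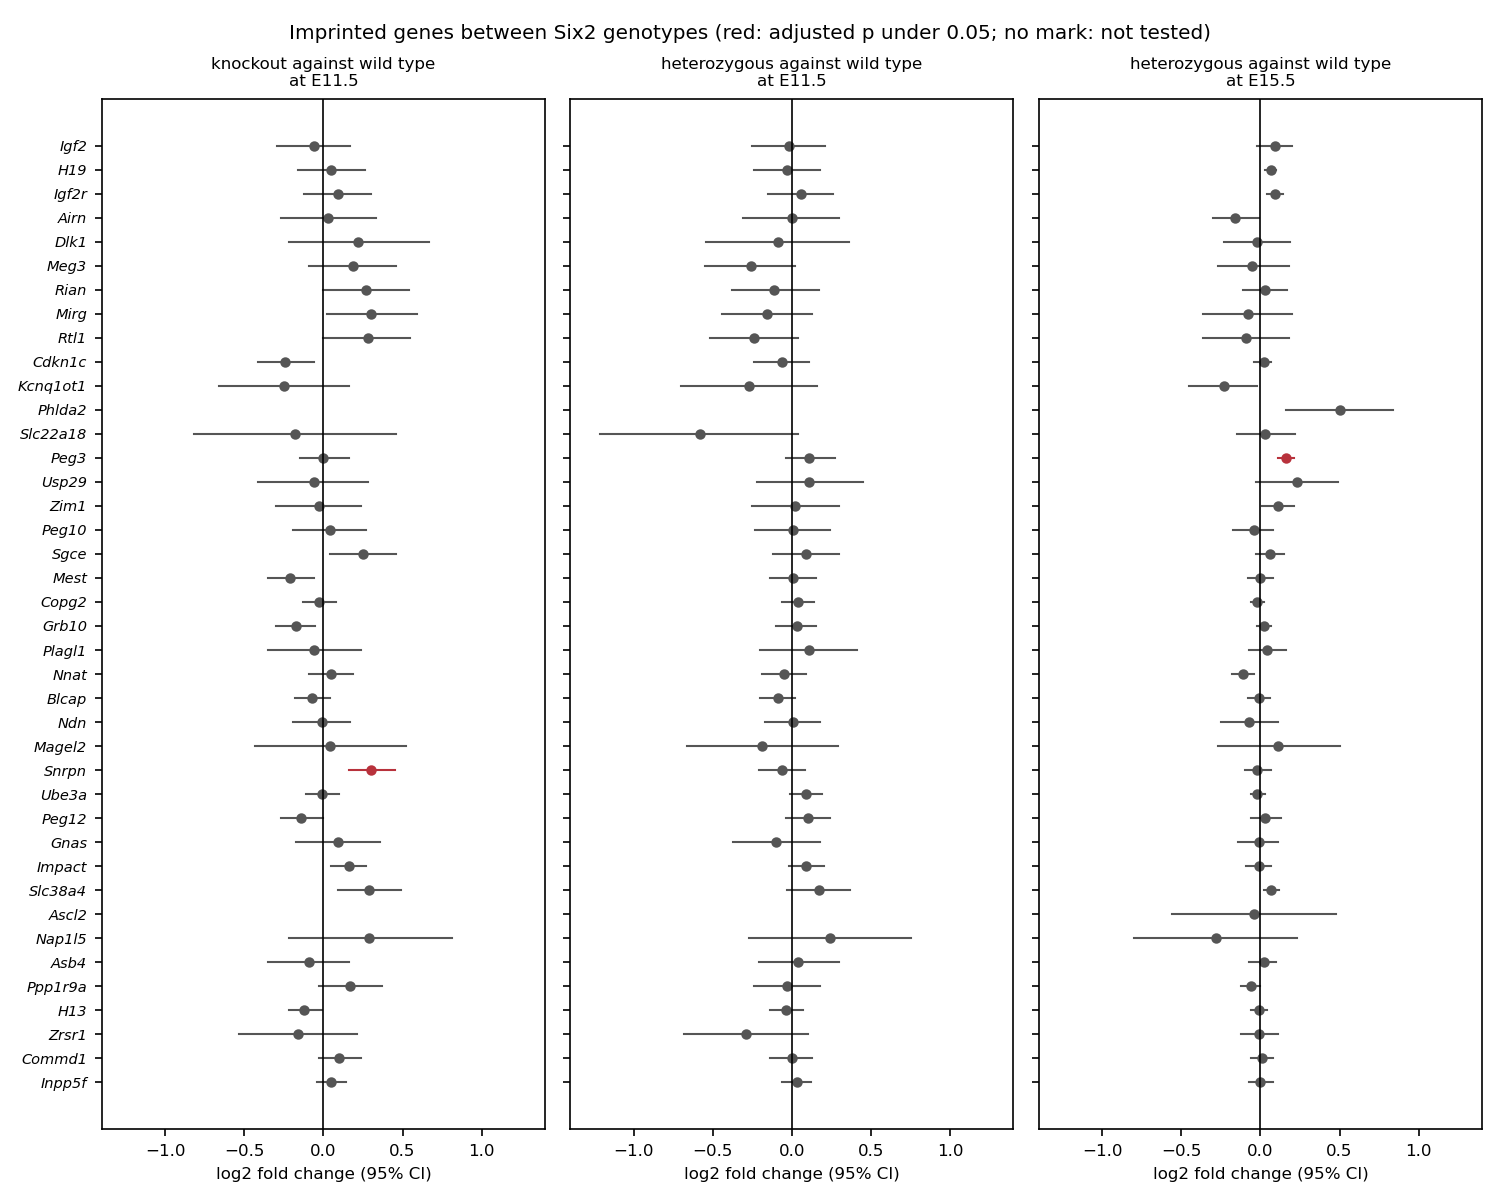
Log2 fold change of each imprinted gene with its 95% confidence interval, in knockout against wild type at E11.5, heterozygous against wild type at E11.5 and heterozygous against wild type at E15.5. Points in red passed an adjusted p of 0.05, which are Snrpn in the knockout (0.30) and Peg3 in E15.5 heterozygous embryos (0.16).

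At an unadjusted p under 0.05 there were 11 members in the knockout comparison. The share of all genes at that level was not computed, so the count is description and not a result about the members. Those lower in value were Cdkn1c at -0.24 (edgeR adjusted p 0.104), Mest at -0.21 (adjusted p 0.0798), Grb10 at -0.17 (adjusted p 0.0942) and H13 at -0.12. Those higher in value were Snrpn, Slc38a4, an amino acid transporter, at 0.29 (adjusted p 0.077), Impact, a translation regulator, at 0.16 (adjusted p 0.0671), Sgce at 0.25, and the Dlk1-Meg3 domain genes Rian at 0.27, Mirg at 0.30 and Rtl1 at 0.28. Apart from Snrpn none of them passed the adjusted threshold of edgeR, while DESeq2 called 5 members, Snrpn with Mest, Cdkn1c, Grb10 and Slc38a4. Over all genes DESeq2 called 1436 of 16141. Markers of other cells differed between these groups: the summed nephron progenitor markers were at 313 to 389 CPM in knockout and 786 to 1242 CPM in wild type, and 9 of 10 were lower. Macrophage markers were at 92.3 to 211 and 62.1 to 127 CPM, with 7 of 7 higher in knockout. The part of these shifts in the member values was not tested.

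Against heterozygous embryos the knockout gave the same single call, Snrpn, of 38 members, with 3.69% of all genes called. Of the Dlk1-Meg3 domain, Rtl1 differed by 0.52 (SE 0.14, edgeR adjusted p 0.0532), Mirg by 0.46 (adjusted p 0.0982), Meg3 by 0.45 (adjusted p 0.1), Rian by 0.38 and Dlk1 by 0.31 (adjusted p 0.503), none of which was called by edgeR. Outside that domain Slc22a18 differed by 0.40 (SE 0.33), also not called. DESeq2 called 7 members, Snrpn among them, and 1015 of all 16141 genes. Of the domain it called Rtl1 (adjusted p 0.0122), Meg3 (adjusted p 0.032) and Mirg (adjusted p 0.0337), all higher in knockout. Outside the domain DESeq2 called Grb10 at -0.21 (adjusted p 0.00074), Peg12 at -0.25 (adjusted p 0.0289) and Mest at -0.23 (adjusted p 0.0304), all lower. Rtl1 was at 21.6, 12.5, 13, 24.2 and 21 CPM in the heterozygous specimens and at 27.9, 23.1, 22.9, 32.9 and 26.3 CPM in the knockout specimens. The highest heterozygous value overlapped the lower knockout values. Neuron and sympathetic chain markers summed to 85 to 129 CPM in heterozygous and 128 to 188 CPM in knockout specimens. Of these 9 markers only 1 was called higher and 0 lower, and their part in the Rtl1 values was not tested.

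Loss of 1 copy of Six2 at E11.5 called no member by edgeR: 0 of 38 had an adjusted p under 0.05, 0 had an unadjusted p under 0.05 and DESeq2 also called 0, with 0.0681% of all genes called. The log2 changes ran from -0.58 (Slc22a18) to 0.24 (Nap1l5), and for 33 of 38 members the 95% interval lay within 1.5-fold. At E15.5 the heterozygous comparison called 1 of 40 members, Peg3, against 0.57% of all genes. There 9 members had an unadjusted p under 0.05, a level for which the share of all genes was not computed. Peg3 stood at 887, 912, 906 and 934 CPM in wild-type specimens and at 1025, 1003, 993 and 1062 CPM in heterozygous specimens. All 4 heterozygous values were above all 4 wild-type values, with a log2 difference of 0.16 (SE 0.02, edgeR adjusted p 0.0103). The call was lost without wild-type specimen 2 (adjusted p 0.0743 by edgeR) or heterozygous specimen 4 (adjusted p 0.0594), and in a fit over all 24 specimens.

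At E15.5 the spread between specimens was small, so intervals were narrow: for 38 of 40 members the 95% interval lay within 1.5-fold. H19 differed by 0.07 (interval 0.03 to 0.10), Igf2 by 0.09 (interval -0.02 to 0.20) and Nnat by -0.11. Phlda2 had the highest value, 0.50, at 0.844 to 1.26 CPM in wild type and 1.24 to 1.73 CPM in heterozygous specimens, ranges that overlapped (edgeR adjusted p 0.301). The difference between the heterozygous effects at the 2 ages was called for 0 of 39 members by edgeR, 0 at an unadjusted p under 0.05 and 0 by DESeq2, and for 0.00576% of all genes. It was widest for Phlda2 at 0.68 (SE 0.55).

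Many members differed between the batches that the labels number 1 and 2. At E11.5, 23 of 38 members differed between batch 2 and batch 1, 7 higher and 16 lower, with 52.8% of all genes called. The widest were Peg10 at -0.91, Snrpn at -0.89, Kcnq1ot1 at -0.88, Ube3a at -0.65 and Igf2 at -0.63 on the log2 scale, and Commd1 at 0.57 and Cdkn1c at 0.51 in the other direction. In the paired runs of the same E15.5 specimens 11 of 40 members differed, 5 higher and 6 lower, with 26% of all genes called, the widest being Gnas at -0.52. At E11.5 the batches hold different specimens apart from 1 heterozygous specimen run in both, so for the others specimen and batch cannot be told apart.

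**Figure D4:**
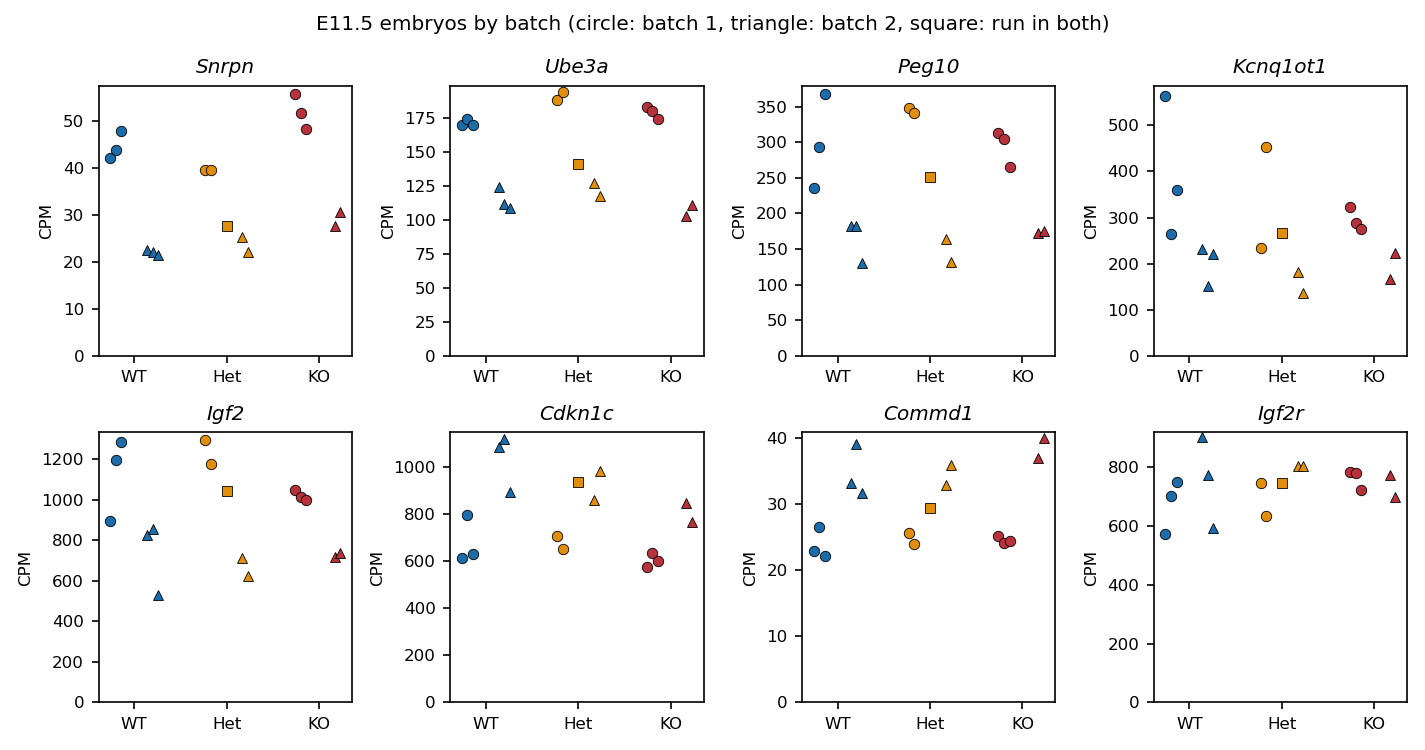
Level in CPM of 8 imprinted genes in each E11.5 specimen, by genotype. Circles are batch 1, triangles batch 2 and squares the heterozygous specimen run in both. For Snrpn, Ube3a, Peg10 and Igf2 most circles lie above the triangles, and for Commd1 and Cdkn1c most lie below.

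Neighbouring imprinted genes were compared across the 16 E11.5 specimens on residual log2 CPM after genotype, sex and batch, for 11 pairs fixed by position, with two-sided permutation tests. After adjustment over the 11 pairs, 4 passed. Meg3 and Rian, neighbouring maternally expressed RNAs, had r = 0.82 (Spearman rho 0.79, permutation adjusted p 0.0022). Igf2 and H19 had r = 0.73 (rho 0.67, permutation adjusted p 0.00731), Nnat and Blcap r = 0.68 (rho 0.77, permutation adjusted p 0.0102), and Cdkn1c and Kcnq1ot1 r = -0.68 (rho -0.68, permutation adjusted p 0.0111). The permutation shuffles residuals, which share the fitted terms. Pairs of unlinked members were not compared, so the correlations are not shown to be particular to neighbours. In wild-type specimen 6 the residuals were negative for Igf2 (-0.371), Meg3 (-0.331) and Peg10 (-0.235), which lie on different chromosomes. Of the genes in these pairs, only Kcnq1ot1, Copg2 and Magel2 had positive residuals in that specimen.

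Without the 2 specimens farthest from the median of the first gene, r was 0.73 for Meg3 and Rian, 0.56 for Igf2 and H19, 0.59 for Nnat and Blcap and -0.62 for Cdkn1c and Kcnq1ot1, and by r only the first pair still passed, while by rho Nnat and Blcap passed too (rho 0.70, permutation adjusted p 0.039). Within the 9 libraries of batch 1 Meg3 and Rian had r = 0.91 and Nnat and Blcap 0.92, and these 2 pairs passed, while Igf2 and H19 had 0.63 and Cdkn1c and Kcnq1ot1 -0.41 and did not. Within the 8 libraries of batch 2 the Meg3 and Rian value was 0.91, that of Igf2 and H19 was 0.98 and that of Cdkn1c and Kcnq1ot1 -0.92, all 3 past the threshold, and Nnat and Blcap had 0.63 and did not pass. The Peg3 and Usp29 residuals had r = 0.33 and those of Peg10 and Sgce r = 0.25, neither past the threshold over all 16 specimens. Within batch 2 alone Peg10 and Sgce had r = 0.93 and Snrpn and Ube3a r = 0.85, and both passed. After genotype and sex are fitted to 8 or 9 libraries few free residuals remain, so high r values arise easily. The permutation treats these residuals as exchangeable, so passing within 1 batch is description only.

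**Figure D5:**
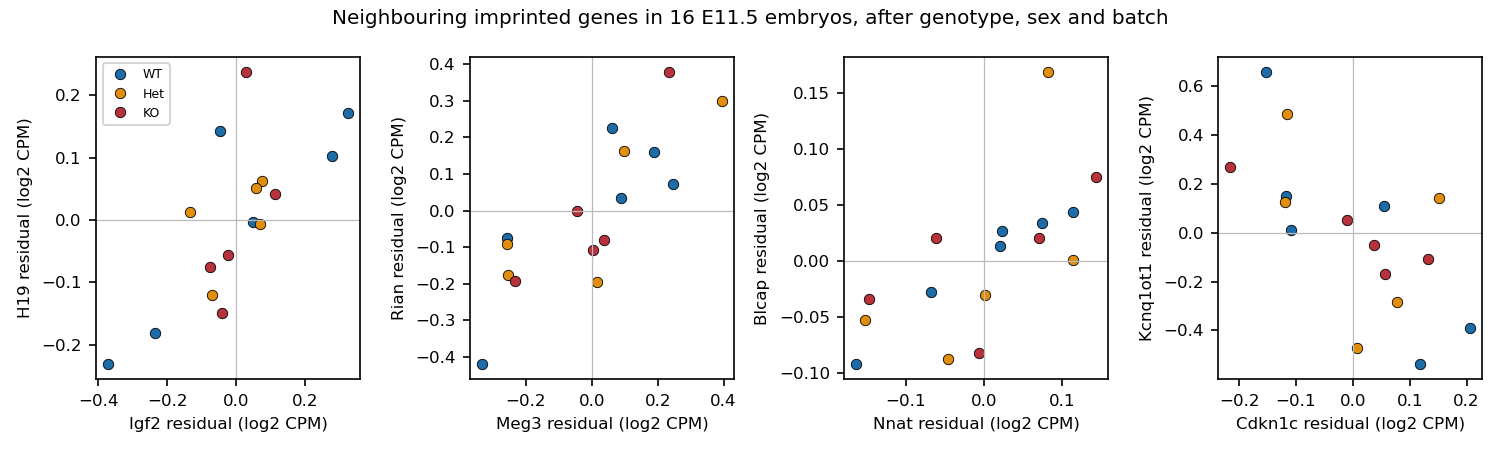
Residual log2 CPM of 4 pairs of neighbouring imprinted genes in the 16 E11.5 specimens after genotype, sex and batch, coloured by genotype. The pairs Igf2 and H19, Meg3 and Rian, and Nnat and Blcap rise together, and Cdkn1c and Kcnq1ot1 run in opposite directions.

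Genes of the wider pathway were read from fixed lists. In the knockout against wild type, 0 of 20 tested IGF signalling genes were higher and 4 lower: the receptor Igf1r at -0.21, the adaptor Irs2 at -0.44, and the stanniocalcins Stc1 at -1.02 and Stc2 at -1.22. Of 16 imprint upkeep genes 1 was lower, Mbd3 at -0.26. Of 34 further imprinted genes 2 were higher, Kcnk9 at 1.27 and Casd1 at 0.25, and 1 lower, Atp10a at -0.58. Over all genes 7.09% were called in this comparison, a share close to that of the upkeep list and of the further imprinted genes. Against heterozygous embryos the knockout was lower for Irs2 at -0.35 and Stc2 at -0.94, for Uhrf1 at -0.29, and for Dio3 at -1.25 and Atp10a at -0.62, and higher for Casd1 at 0.20. In E11.5 heterozygous embryos none of these 3 lists held a called gene, and at E15.5 only Igfbp2 did, at -0.16 (edgeR adjusted p 0.0103).

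Between the ages in wild type, where 32.1% of all genes were lower and 34% higher, the IGF list split, 9 higher and 9 lower of 22, with a median of -0.16. The binding proteins Igfbp7 at 5.54, Igfbp6 at 4.06 and Igfbp1 at 3.62 and the protease Pappa2 at 3.82 were the highest, and the RNA-binding protein Igf2bp3 was at -2.70. Igfbp1 (0 to 0.519 CPM) and Pappa2 (median 0.492 CPM) were near 0 in E11.5 wild type, so their values are description and no support for a change. Imprint upkeep genes were mostly lower, 11 lower and 2 higher of 16 with a median of -0.22, among them Zfp57, which protects imprints from demethylation, at -0.78, and Tet3 at -0.71. Further imprinted genes were 13 higher and 16 lower of 35 with a median of 0.03, not far from the shares of all genes. Slc22a2 at 4.74, Th at -4.60 and Kcnk9 at -4.37 were the widest, and Th, tyrosine hydroxylase, also marks sympathetic neurons. Slc22a2 stood at 0.0985 to 0.273 CPM in E11.5 wild type. Th stood at 0.0601 to 1.08 CPM and Kcnk9 at 0.0301 to 0.177 CPM in E15.5 wild type. With levels near 0 at 1 age, these 3 values are description and no support for a change. In heterozygous embryos the 3 lists had 10 higher and 8 lower, 1 higher and 12 lower, and 11 higher and 16 lower.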

How the data were processed

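RNA was sequenced from whole kidneys of Six2 wild-type, heterozygous and knockout mouse embryos. Reads were aligned with STAR 2.4.0h1 to mm10 and counted per gene with featureCounts 1.4.6, per the submitters' processing notes; the annotation and strand setting are not given in the sources used here. The values deposited by the authors are raw counts, whole numbers with unequal library totals, and 0 per-sample columns were left over. Runs of 1 specimen, tied by technical replicate number at E15.5 and by title at E11.5, were summed, giving 24 specimens.

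edgeR 4.0.16 (R 4.3.3) was used for quasi-likelihood F tests with TMM scaling, filterByExpr (minimum count 10, minimum total 15) and Benjamini-Hochberg adjustment at 0.05 over all genes tested, with DESeq2 1.42.0 as an alternative. E11.5 fits had genotype, sex and batch as terms, E15.5 fits genotype and sex, and comparisons of ages used all 24 specimens with group, sex and E11.5 batch. The batch number in the labels is the replicate number of the E11.5 titles, so batch is the replicate block. CPM values use TMM-scaled totals, and levels compared between genes are CPM per kilobase of the deposited gene length. Positions and exonic overlaps come from GENCODE, and sequences from RefSeq tables of GRCm38.p6. Python 3.11.15 was used for tables and figures.

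The scripts were tested on simulated data: for the knockout comparison (15991 genes) 99% of genes changed by 1 and 29% of those changed by 0.3 on the log2 scale were called, and for the heterozygous comparison at E15.5 (18106 genes) 100% and 92%, and for the ages in wild type (16979 genes) 98% and 65%. Unchanged genes made up 3.76%, 8.13% and 6.86% of the calls.

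The members and gene lists were chosen with earlier results of these data known. Members called between genotypes, the 12 largest called changes of each age comparison and their domain neighbours are given in full, and Igf2, H19, Igf2r and Airn were added with their values known. The planned set of ribosomal genes held few counts, so a wider set of 189 genes was added after the data were seen. Alternatives were another tool, scaling, filter, sex term, ribosomal genes, batch handling, title prefix as block, each batch alone, 1 fit over all specimens and leaving out each specimen.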

Additional observations from a re-analysis of the deposited data

Results flagged for a closer look

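In 17 of 200 sets of 1 gene in 1 group, 1 specimen stood apart from the others by Dixon's test at the 95% level, which chance alone gives in about 1 of 20 sets. All values are CPM. No explanation was tested.

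In E15.5 wild type the values that stood apart were those of specimen 1 for H19 at 3620 (the others 3525 to 3540) and Gnas at 27.3 (23.1 to 23.4), specimen 2 for Airn at 8.36 (9.9 to 10.2) and Dlk1 at 25.1 (34.6 to 36.3), specimen 3 for Ndn at 88.6 (104 to 106), and specimen 4 for Mest at 1018 (915 to 929) and Zrsr1 at 9.16 (8.3 to 8.39).

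In E15.5 heterozygous embryos specimen 4 stood apart for 4 genes, Dlk1 at 36.2 (30.6 to 31.4), Peg10 at 59.9 (49.2 to 50.9), Nnat at 74.8 (64.3 to 65.8) and Ube3a at 175 (169 to 170). Specimen 1 stood apart for Sgce at 28.6 (25.6 to 25.9).

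At E11.5 wild-type specimen 3 was high for Magel2 at 9.73 (5.57 to 6.84) and low for H13 at 123 (135 to 142). Heterozygous specimen 2 was high for Grb10 at 2216 (2031 to 2076), heterozygous specimen 5 for Magel2 at 8.73 (4.26 to 5.21), and knockout specimen 1 for Ppp1r9a at 153 (129 to 136).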

How the results depend on the processing

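The comparison of ages was steadier than the calls between genotypes. Called members numbered 29 to 35 under all alternatives in wild type and heterozygous embryos, and 26 of the 34 held in each genotype under all 10 settings and 24 fits without 1 specimen. Among the 26 are Phlda2 and Nap1l5, whose calls are no support for a change because of the filter. Those that did not hold in every fit were Commd1, Copg2, Dlk1, Gnas, Inpp5f and Ube3a in both genotypes, Slc38a4 and Snrpn in wild type, and H19 and Plagl1 in heterozygous embryos. Signs turned for Snrpn in wild type (0.00 with batch 2 alone), Plagl1 (0.16 with batch 2 alone) and Ube3a (-0.18 with batch 1 alone) in heterozygous embryos; the cause was not tested.

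Without the replicate block (batch) the knockout calls against wild type and against heterozygous both went from 1 to 0, and age counts were 30 in wild type and 29 in heterozygous embryos. Over all genes that setting called 439 and 154 of 16141, and between the ages 9108 and 8760 of 17362. For knockout against wild type the count was 5 with DESeq2, 2 without a filter, 2 with the wider ribosomal set removed and 6 in 1 fit over all 24 specimens, and 0 without libraries above 5% ribosomal counts, with the title prefix as block, and with batch 1 or batch 2 alone. Over all genes the main fit called 1144 of 16141. The first 4 settings called 1436 of 16141, 1135 of 26166, 1141 of 16099 and 2142 of 17362, and the others 349, 492, 265 and 168 genes. For knockout against heterozygous the member count was 7, 4, 2 and 8 in the first 4 settings, 3 without the sex term, 2 without libraries above 5% ribosomal counts, 2 with the title prefix and 0 in each batch alone. Over all genes the main fit called 595 here, and the first 4 settings 1015, 645, 624 and 1778. The others called 776, 299, 602, 7 and 56 genes. Leaving out 1 specimen gave 0 to 2 and 0 to 4 calls, 0 without knockout specimen 5 in both. With the title prefix as block Snrpn was -0.27 against wild type and -0.45 against heterozygous. For heterozygous against wild type at E15.5 the fit over all 24 specimens called 0, and leaving out 1 specimen gave 1 call, which was Nnat in place of Peg3 without wild-type specimen 2 or heterozygous specimen 4. The correlated pairs went from 4 to 1 without the 2 farthest specimens and to 2 in batch 1 alone, and rose to 5 in batch 2 alone. The counts within 1 batch rest on few free residuals and are description only. Few E11.5 counts per low gene (Phlda2, Ascl2, Slc22a18) limit what could be tested.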
